A study of Mus musculus with 12 samples.

Results

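The 30 genes described here are used as markers of microglia and of the other macrophages of the brain. They were taken from a list of names, matched to the gene IDs of the deposited tables through their symbols, and the rule for choosing them uses no measured value, although the list was drawn up with earlier results of these data known. All 30 were found among the 22667 gene IDs of the tables, and all 30 passed the filter on low counts that left 16111 genes for testing. The tables hold messenger RNA measurements from whole brain tissue of E18.5 mouse embryos, shortly before birth, in 4 groups with 2 libraries each. These are hippocampus of nSR100/Srrm4 KO embryos, hippocampus of control embryos labelled wild type, cortex of the KO embryos, and cortex of the controls.

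Srrm4, also called nSR100, is a splicing regulator of neurons. Per the labels' protocols the KO line started from EUCOMM stem cell clones with a conditional allele, grown in outbred ICR morulae and then kept on a C57Bl/6N background. Exons 7 and 8 were removed by Cre recombinase under a cytomegalovirus promoter, which is active in most tissues, so the deletion was not restricted to neurons or to microglia. The labels do not give the genotype of the controls beyond wild type, nor whether they were littermates, nor whether the libraries came from separate embryos or pools. The p-values below therefore rest on how far these libraries vary, and that variation may be in part technical.

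Microglia are the resident macrophages of the brain. They descend from yolk sac progenitors that enter the neural tube early in development, multiply there, and are kept alive by signalling through the receptor Csf1r. In the embryonic brain they take up dying cells and synaptic material, and they are the main source of the complement protein C1q. A separate set of macrophages lies at the borders of the brain, in the meninges, around vessels and in the choroid plexus, and is marked by genes such as Mrc1 and Pf4. In bulk tissue, fewer cells of a type and less RNA per cell cannot be told apart, and this applies to each level given below.

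Total counts were 58210499 to 140052443 per library, with replicate 1 of each group, which combines 2 sequencing runs, the deeper. Srrm4 stood at 5.68 and 6.16 RPKM (mapped reads scaled to transcript length and library size) in hippocampus KO libraries, against 26.03 and 27.86 in hippocampus controls. In cortex, Srrm4 stood at 8.12 and 6.97 RPKM in KO libraries, against 25.22 and 24.22 in controls. The tissue labels were checked with Prox1, a marker of the dentate gyrus, at 25.72 to 34.29 RPKM in hippocampus and 3.52 to 4.81 in cortex. Tbr1, a transcription factor of cortical projection neurons, stood at 30.45 to 32.28 RPKM in hippocampus and 70.32 to 71.94 in cortex. Hippocampus KO replicate 1 had the largest mitochondrial share of counts, 4.40% against 3.14% to 3.44% in the other 7. Y-linked genes summed to 0.412 CPM, counts scaled to library size, in hippocampus KO replicate 2 and 0.319 in cortex KO replicate 2, against 148 and 144 in the replicate 2 controls of hippocampus and cortex. The replicate 1 libraries lay between, at 25.4 to 49.8 CPM, so that among the replicate 2 libraries genotype and Y-linked level cannot be told apart.

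All 30 genes had reads in every library. Microglia and macrophage markers were read together, at unlike levels. C1qa, C1qb, C1qc, Csf1r, Cx3cr1, P2ry12, Trem2, Tyrobp and Fcrls each stayed above 1 RPKM in all 8 libraries, a cut picked with the values in view. Other markers did not: Tmem119 stood at 0.38 to 1.19 RPKM, Siglech at 0.34 to 1.07, Spi1 at 0.39 to 0.98 and Irf8 at 0.40 to 1.40. Gpr34 and Aif1 had 0.94 and 0.92 RPKM in their lowest libraries. Markers of blood-borne leukocytes ranged from 0 to levels within the range of the 30 genes. The monocyte receptor Ccr2 was listed at 0 to 0.03 RPKM, and the monocyte gene Ly6c2 at 0 in 6 of 8 libraries. The T cell genes Cd3e and Cd3g did not exceed 0.01 RPKM, while Cd3d stood at 0.08 to 0.34. The neutrophil genes S100a8 and S100a9 stood at 0.67 to 1.53 and 0.69 to 1.64 RPKM, Plac8 at 0.21 to 0.44, and the B cell gene Cd79b at 0.12 to 0.30. The most abundant of the 30 was Lgmn, which encodes the lysosomal protease legumain, at 22.84 to 33.56 RPKM. The least abundant were Ptprc, the pan-leukocyte phosphatase CD45, at 0.22 to 0.43 RPKM, and Pf4, a platelet factor chemokine, at 0.01 to 1.08 RPKM.

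Several of these genes share a short sequence in the promoter window around their start. Spi1 encodes PU.1, a transcription factor of the ETS family that macrophage development requires and that binds purine-rich DNA around GGAA. RefSeq promoter windows of build GRCm38.p6, from 250 bases before to 50 bases after the start, were matched by symbol for 23 of the 30 genes, in 26 windows. The string AGGAAGT, searched on both strands, occurred in 11 of these 26 windows, belonging to C1qb, C1qc, Cd53, Ctss, Fcrls, Lyz2, Mrc1, P2ry12, Pf4 and Ptprc. It occurred in 9.35% of all 32851 promoter windows of the same length. The longer string GAGGAAGT, which contains the first, occurred in 4 windows (C1qc, Cd53, Ctss and Pf4), against 3.2% of all windows. A composite element of ETS and IRF factors, read as GGAA followed by 2 free bases and then GAAA, occurred in 1 of the 26 windows, that of Cd68, against 2.72% of all windows. The strings were picked with the promoters in view, and a match is a description of the letters, not a measured binding site. The windows of C1qb (chr4:136886151-136886450, minus strand), C1qc (chr4:136892865-136893164, minus strand), Ctss (chr3:95526536-95526835, plus strand) and Cd53 (chr3:106790100-106790399, minus strand) are shown because these 4 genes hold a match and return below in both comparisons. Other genes, such as Csf3r and Trem2, also return in both, without a match reported here. Each window is written 5′ to 3′ along the gene, and capitals mark ACTTCCT, which is AGGAAGT read on the opposite strand.
C1qb: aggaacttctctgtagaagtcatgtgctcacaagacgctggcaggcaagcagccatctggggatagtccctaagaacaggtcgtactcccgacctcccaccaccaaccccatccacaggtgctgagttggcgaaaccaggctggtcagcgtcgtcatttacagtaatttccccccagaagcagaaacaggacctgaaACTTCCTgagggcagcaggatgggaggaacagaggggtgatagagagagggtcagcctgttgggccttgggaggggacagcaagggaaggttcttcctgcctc
C1qc: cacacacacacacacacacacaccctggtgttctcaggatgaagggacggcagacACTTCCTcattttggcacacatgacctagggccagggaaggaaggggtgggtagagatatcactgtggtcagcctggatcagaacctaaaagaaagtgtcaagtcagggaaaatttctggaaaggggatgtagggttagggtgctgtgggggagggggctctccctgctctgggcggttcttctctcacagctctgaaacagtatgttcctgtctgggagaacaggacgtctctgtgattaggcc
Ctss: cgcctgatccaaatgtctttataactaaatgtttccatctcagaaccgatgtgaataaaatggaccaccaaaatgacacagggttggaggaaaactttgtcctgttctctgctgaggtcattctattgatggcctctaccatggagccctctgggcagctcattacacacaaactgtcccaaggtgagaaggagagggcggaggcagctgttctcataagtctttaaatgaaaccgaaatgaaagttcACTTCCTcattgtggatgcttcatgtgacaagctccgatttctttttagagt
Cd53: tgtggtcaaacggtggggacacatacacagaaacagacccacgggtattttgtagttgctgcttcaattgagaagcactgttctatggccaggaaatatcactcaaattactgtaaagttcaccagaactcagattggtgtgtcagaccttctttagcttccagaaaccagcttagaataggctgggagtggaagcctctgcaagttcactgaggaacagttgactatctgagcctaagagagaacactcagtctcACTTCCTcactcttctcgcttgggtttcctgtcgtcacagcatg
Counted from 1 at the 5′ end of the window, the marked bases are 198 to 204 in C1qb, 56 to 62 in C1qc, 249 to 255 in Ctss and 257 to 263 in Cd53. In Ctss and Cd53 they therefore lie next to the annotated start, and in C1qc they lie well upstream of it.

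The first comparison was hippocampus against cortex, over 4 libraries each with genotype as a covariate. The fit took the 8 libraries as independent and used no pairing. The labels do not say whether hippocampus and cortex libraries share embryos. Where they do, the p-values below ignore that link. Microglia and macrophage genes were higher in hippocampus almost throughout. Of the 30 genes, 28 passed edgeR's quasi-likelihood test at an adjusted p under 0.05 with the higher level in hippocampus, and 0 passed with the lower level. Among all 16111 genes tested, 29% passed as higher in hippocampus and 54.1% passed in either direction. The estimate was positive for 30 of 30 genes, against 53.1% of all genes. The median log2 fold change of the 30 genes was 0.79, a 1.73-fold higher level, against 0.02 over all genes tested. A change of at least 0.5 on the log2 scale together with the adjusted p was reached by 26 of the 30, against 17.7% of all genes. Summed over the 30 genes, the level was 163 ± 12 RPKM in hippocampus KO and 93.4 ± 0.33 RPKM in cortex KO, and 142 ± 5.74 RPKM in hippocampus controls and 83.8 ± 3.06 RPKM in cortex controls (SD, n = 2 each).

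**Figure D1:**
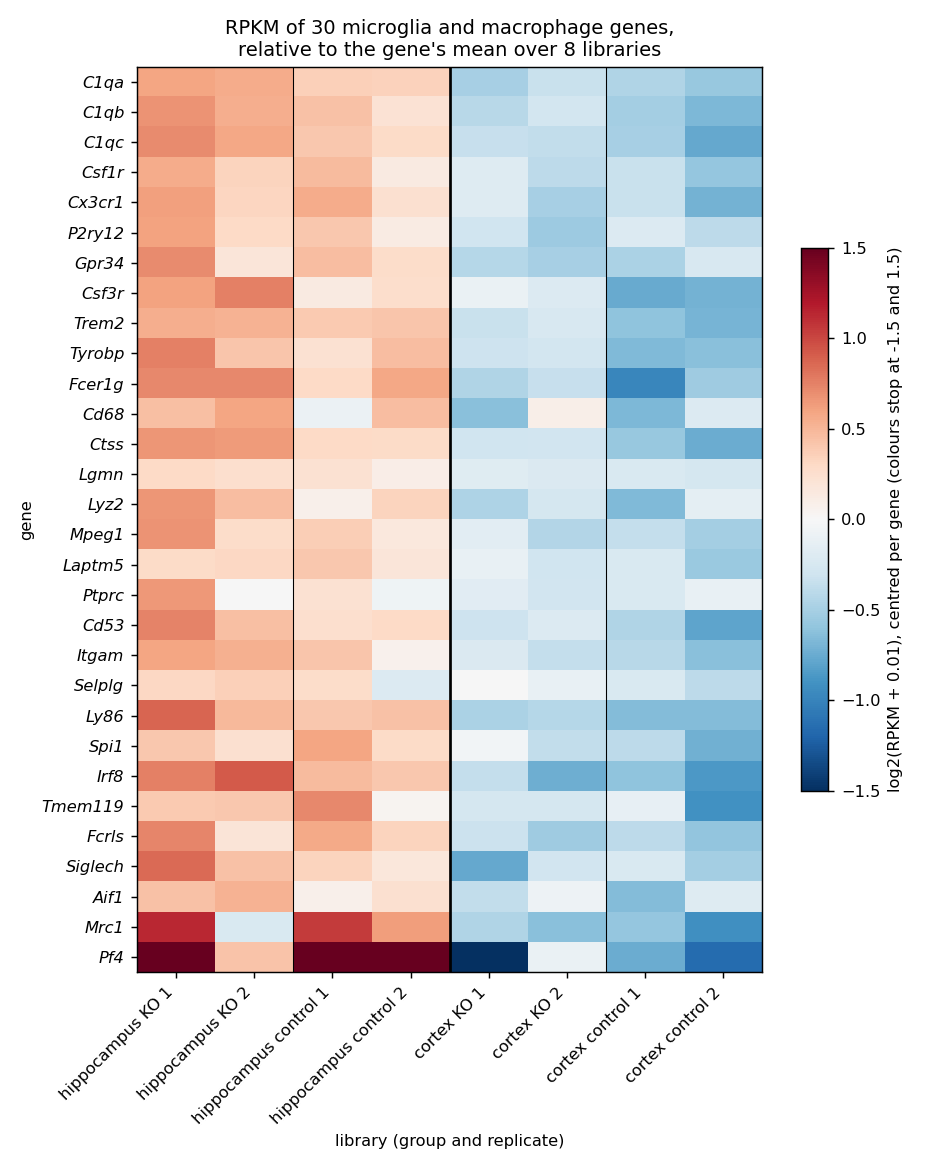
Level of each of the 30 genes (rows) in each of the 8 libraries (columns), as log2(RPKM + 0.01) minus the gene's mean over the libraries, with red above and blue below that mean. The 4 hippocampus columns on the left are red for nearly every gene and the 4 cortex columns blue, while Mrc1 and Pf4 are paler in hippocampus KO replicate 2 than in the other 3 hippocampus libraries.

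The 3 genes of complement C1q, which lie side by side on chromosome 4 and encode the chains of the molecule that starts the classical complement pathway, were among the genes with the smallest p. C1qa stood at 11.39 and 11.16 RPKM in hippocampus KO, 9.71 and 9.66 in hippocampus controls, 5.34 and 6.00 in cortex KO, and 5.56 and 5.10 in cortex controls. C1qb stood at 15.53 and 14.15 RPKM in hippocampus KO, 13.13 and 11.29 in hippocampus controls, 7.24 and 8.02 in cortex KO, and 6.78 and 6.08 in cortex controls. C1qc stood at 13.66 and 12.55 RPKM in hippocampus KO, 11.08 and 10.19 in hippocampus controls, 6.55 and 6.47 in cortex KO, and 5.90 and 4.92 in cortex controls. For all 3 the lowest hippocampus library was above the highest cortex library. The log2 fold changes were 0.84 ± 0.07 for C1qa, 0.85 ± 0.08 for C1qb and 0.90 ± 0.08 for C1qc (SE, edgeR adjusted p = 1.24e-05, 2.78e-05 and 1.91e-05). The chains kept close proportions: the ratio of C1qa to C1qb RPKM was 0.733 to 0.856 across the libraries, and that of C1qc to C1qb 0.807 to 0.905.

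Among the surface receptors, Csf1r, the receptor for the survival factors Csf1 and Il34, stood at 7.97 and 6.80 RPKM in hippocampus KO, 7.52 and 5.94 in hippocampus controls, 4.71 and 4.13 in cortex KO, and 4.28 and 3.62 in cortex controls. Cx3cr1, the receptor for the neuronal chemokine Cx3cl1, stood at 5.46 and 4.45 RPKM in hippocampus KO, 5.25 and 4.21 in hippocampus controls, 3.10 and 2.52 in cortex KO, and 2.81 and 2.17 in cortex controls. P2ry12, the nucleotide receptor by which microglial processes sense injury, stood at 3.68 and 2.98 RPKM in hippocampus KO, 3.20 and 2.64 in hippocampus controls, 1.97 and 1.66 in cortex KO, and 2.09 and 1.84 in cortex controls. None of the 3 overlapped between tissues. Their log2 fold changes were 0.66 ± 0.11, 0.78 ± 0.13 and 0.63 ± 0.12 in that order (SE, edgeR adjusted p = 0.000606, 0.000794 and 0.00192). Gpr34, a lysophospholipid receptor (0.76 ± 0.13), and Csf3r, the receptor for the granulocyte factor G-CSF (0.80 ± 0.10), passed as well (edgeR adjusted p = 0.001 and 0.000142).

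Trem2, a lipid-sensing receptor, signals through the adaptor Tyrobp, and Fcer1g is the related adaptor of Fc receptors. Trem2 stood at 3.27 and 3.21 RPKM in hippocampus KO, 2.95 and 2.99 in hippocampus controls, 1.77 and 1.89 in cortex KO, and 1.47 and 1.37 in cortex controls. Tyrobp stood at 10.01 and 7.91 RPKM in hippocampus KO, 6.94 and 8.2 in hippocampus controls, 4.78 and 4.89 in cortex KO, and 3.74 and 3.84 in cortex controls. The receptor and its adaptor were higher in hippocampus by nearly the same log2 amount, 0.85 ± 0.10 and 0.85 ± 0.10, and Fcer1g by 1.07 ± 0.11 (SE, edgeR adjusted p = 6.67e-05, 8.73e-05 and 4.31e-05).

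All 6 genes of the lysosome and of phagocytosis passed. Ctss, the lysosomal protease cathepsin S, had the smallest p of the 30 genes, with 9 and 8.91 RPKM in hippocampus KO, 7.04 and 6.97 in hippocampus controls, 4.64 and 4.68 in cortex KO, and 3.85 and 3.41 in cortex controls. Its log2 fold change was 0.85 ± 0.07 (SE, edgeR adjusted p = 9.7e-06). Lyz2, lysozyme of macrophages and neutrophils, stood at 4.66 and 4.04 RPKM in hippocampus KO, 3.09 and 3.69 in hippocampus controls, 2.12 and 2.43 in cortex KO, and 1.85 and 2.65 in cortex controls, with a log2 fold change of 0.69 ± 0.14 (SE, edgeR adjusted p = 0.00258). Lyz2 has a close copy, Lyz1, and the sources used here do not say how reads of the 2 were divided. Lgmn had the smallest change of the genes that passed, 0.35 ± 0.05, and the macrophage genes Mpeg1, a pore-forming protein, and Laptm5, a lysosomal membrane protein, had 0.65 ± 0.11 and 0.50 ± 0.11 (SE, edgeR adjusted p = 0.000402, 0.000949 and 0.00377). Cd68, a lysosomal membrane glycoprotein, was the passing gene whose libraries overlapped between tissues: 3.63 RPKM in hippocampus control replicate 1 lay below 4.10 in cortex KO replicate 2. Its log2 fold change was 0.61 ± 0.17 (SE, edgeR adjusted p = 0.015), and its adjusted p was 0.0525 without cortex control replicate 1.

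Leukocyte surface genes were the group with exceptions. Ly86, which pairs with the receptor Cd180, passed with 1.03 ± 0.09, the tetraspanin Cd53 with 0.80 ± 0.12, and Itgam, the integrin chain CD11b, with 0.72 ± 0.11 (SE, edgeR adjusted p = 1.68e-05, 0.000319 and 0.000473). Ptprc and Selplg, a ligand of selectins, had log2 fold changes of 0.36 ± 0.16 and 0.29 ± 0.14 and did not pass (SE, edgeR adjusted p = 0.0847 and 0.103). Of the transcription factors of the lineage, Irf8 had 1.19 ± 0.12 and Spi1 0.66 ± 0.17 (SE, edgeR adjusted p = 3.93e-05 and 0.00784). Irf8 stood at 1.25 and 1.40 RPKM in hippocampus KO, 1.03 and 0.98 in hippocampus controls, 0.57 and 0.44 in cortex KO, and 0.48 and 0.40 in cortex controls.

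Of the remaining microglia-enriched genes, Tmem119, a membrane protein used to tell microglia from other macrophages, stood at 0.95 and 0.96 RPKM in hippocampus KO, 1.19 and 0.74 in hippocampus controls, 0.60 and 0.60 in cortex KO, and 0.66 and 0.38 in cortex controls. It passed with 0.68 ± 0.20 (SE, edgeR adjusted p = 0.0186), and its adjusted p was 0.0592 without hippocampus control replicate 1. Fcrls, an Fc receptor-like protein, Siglech, a sialic acid-binding lectin, and Aif1, the actin-bundling protein Iba1, passed with 0.84 ± 0.13, 0.82 ± 0.18 and 0.56 ± 0.13 (SE, edgeR adjusted p = 0.000472, 0.00422 and 0.0052).

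The border macrophage genes had the largest fold changes of the 30 and the widest spread. Mrc1, the mannose receptor CD206, stood at 1.07 and 0.41 RPKM in hippocampus KO, 1.01 and 0.75 in hippocampus controls, 0.35 and 0.31 in cortex KO, and 0.32 and 0.25 in cortex controls. Pf4 had 71 and 11 counts in hippocampus KO, 50 and 32 in hippocampus controls, 1 and 8 in cortex KO, and 11 and 4 in cortex controls. Their log2 fold changes were 1.32 ± 0.27 and 2.70 ± 0.53 (SE, edgeR adjusted p = 0.0028 and 0.00194), and the size for Pf4 rests on few cortex counts. Pf4 passed the filter on low counts only because of its hippocampus libraries, the tissue where it was higher. In both genes hippocampus KO replicate 2 was the lowest hippocampus library. Col1a1, a collagen of meningeal fibroblasts, was lowest in that library too, at 2.21 and 0.68 RPKM in hippocampus KO and 2.30 and 1.61 in hippocampus controls, against 0.24 and 0.28 in cortex KO and 0.21 and 0.20 in cortex controls. Of 10 genes of pericytes and meninges, 6 passed as higher in hippocampus, among them Col1a1, Col3a1, Dcn and Lum with log2 fold changes of 2.79, 2.77, 2.71 and 1.97. The part of meningeal tissue in the levels of Mrc1 and Pf4 was not tested.

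**Figure D2:**
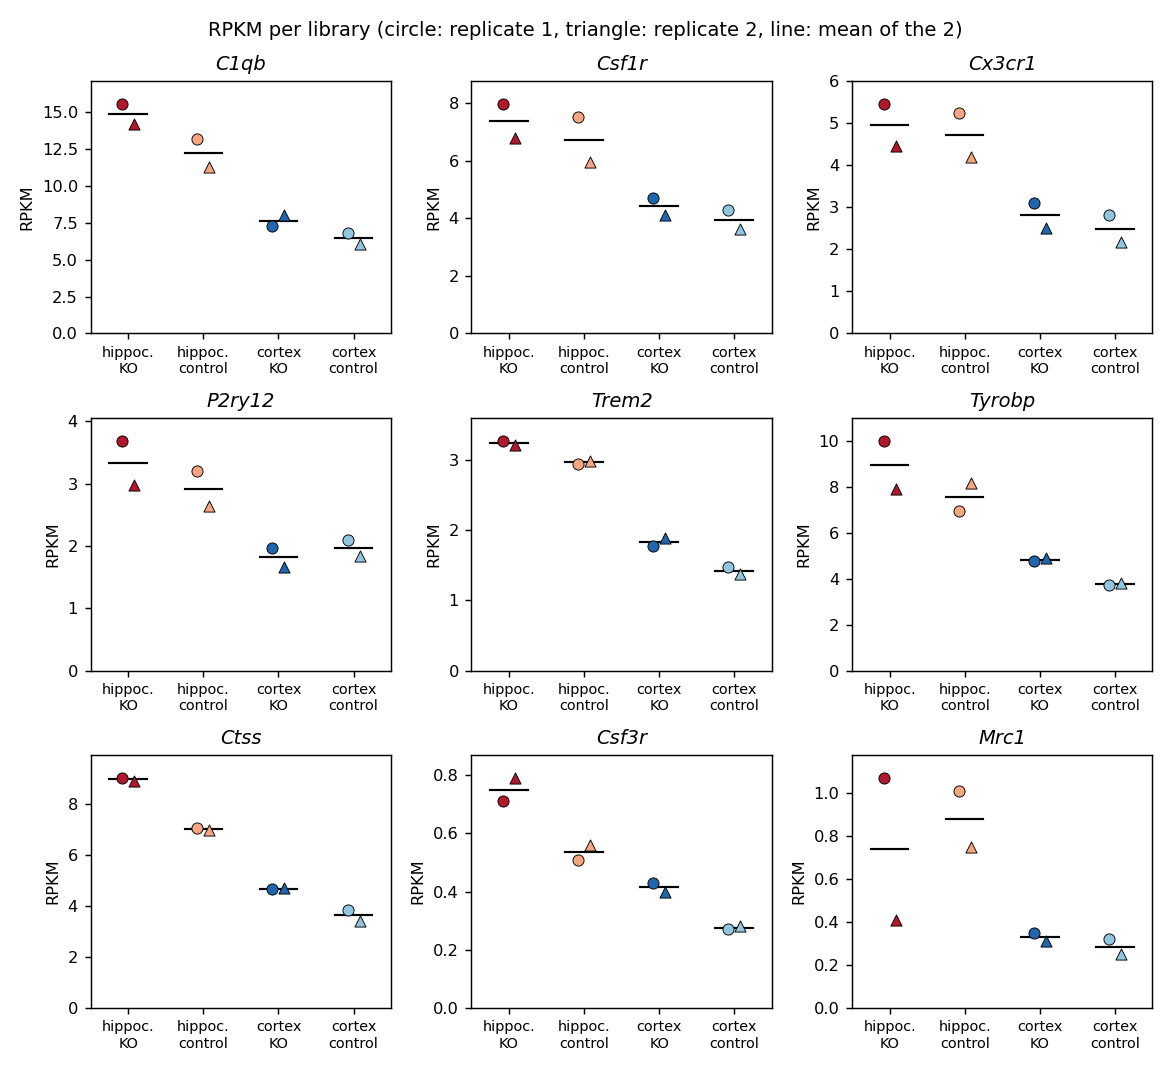
RPKM of 9 of the genes in each library, with hippocampus KO, hippocampus control, cortex KO and cortex control from left to right, circles for replicate 1, triangles for replicate 2 and a line at the mean of the 2. All hippocampus points lie above all cortex points in each panel. In the C1qb, Trem2, Ctss and Csf3r panels both KO points lie above both control points in each tissue.

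By the order of RPKM alone, 28 of the 30 genes had all 4 hippocampus libraries above all 4 cortex libraries, the exceptions being Cd68 and Selplg. The share among all genes tested was 33.1%. With the TMM scaling used in the test the count was 27, against 26.9% of all genes. In TMM-scaled CPM the direction was mostly the same at each genotype and replicate number. In KO libraries 30 of 30 genes were higher in hippocampus in replicate 1 and 30 in replicate 2, against 54.9% and 50.2% of all genes. In control libraries 30 were higher in replicate 1 and 29 in replicate 2, against 52.6% and 50.8%. The median log2 differences were 0.87, 0.64, 0.80 and 0.84 in that order. When hippocampus KO replicate 1, with its larger mitochondrial share, was left out, the median log2 fold change of the 30 genes was 0.72.

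Further genes of the same cells, from a second list of 36 microglia genes, had a median log2 fold change of 0.70. Of these, 28 passed as higher in hippocampus, for example the Fc receptor Fcgr3 (0.78 ± 0.11), the phagocytic receptor Mertk (0.97 ± 0.09) and Lair1 (1.24 ± 0.11). The 3 that passed as lower included Arhgdib (-1.39 ± 0.10) and Ikzf1 (-3.36 ± 0.10), which is also known in neural progenitors. Ikzf1 stood at 0.42 and 0.35 RPKM in hippocampus KO and 0.37 and 0.31 in hippocampus controls, against 3.74 and 3.73 in cortex KO and 3.15 and 3.57 in cortex controls. Of 12 tested genes tied to developmental or disease-associated microglia, 11 passed as higher, including Spp1 (2.33 ± 0.13), Lpl (2.01 ± 0.12), Cd63 (1.54 ± 0.05) and Apoe (0.51 ± 0.09), of which Apoe, Cd63 and Lpl are also made by other brain cells. Of 10 tested further border macrophage genes, 8 passed as higher, among them Lyve1 (2.42 ± 0.49), Folr2 (2.01 ± 0.23) and Cd163 (1.29 ± 0.18). Maf passed as lower (-0.60 ± 0.08). Ms4a7, also tested there, met the filter on low counts only through its hippocampus libraries. Each of these lists holds the same cell types as the 30 genes and comes from the same libraries.

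The ligands that microglia respond to were split. Csf1 stood at 4.83 and 4.37 RPKM in hippocampus KO and 4.54 and 4.19 in hippocampus controls, against 2.49 and 2.50 in cortex KO and 2.24 and 2.19 in cortex controls, a log2 fold change of 0.84 ± 0.07 (SE, edgeR adjusted p = 8.6e-06). Il34, the other Csf1r ligand, stood at 0.80 and 0.91 RPKM in hippocampus KO and 0.91 and 1.01 in hippocampus controls, against 1.22 and 1.23 in cortex KO and 1.28 and 1.24 in cortex controls, and fell by 0.55 ± 0.10 on the log2 scale (SE, edgeR adjusted p = 0.00134). Thus the receptor Csf1r and the ligand Csf1 were both higher in hippocampus, and the ligand Il34 was lower. Cx3cl1, the ligand of Cx3cr1, was at 6.97 to 8.89 RPKM in hippocampus and 16.72 to 19.26 in cortex, a log2 fold change of -1.25 ± 0.09 (SE, edgeR adjusted p = 3.33e-06), opposite in sign to its receptor. Of the 10 genes in this list, Csf1, Tgfbr2 and Cd200r1 passed as higher and Il34, Cx3cl1, Tgfbr1, Cd200, Cd47 and Sirpa as lower. The median was -0.24. Cd200r1, at 1 to 16 counts per library, met the filter on low counts only through its hippocampus libraries. Of 12 other complement genes, 4 passed as higher, among them Serping1, Cd59a and C3ar1, and 0 as lower. C3, the central component that C1q acts upon through the classical pathway, stood at 0.09 to 0.18 RPKM in all 8 libraries and did not pass (log2 fold change -0.49 ± 0.21, SE, edgeR adjusted p = 0.0742).

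Other cell types also differed between the tissues. Endothelial genes had a median log2 fold change of 0.22, with 6 of 10 higher, and cell cycle genes one of 0.77, with 8 of 8 higher, for example Mki67 at 17.55 to 23.64 RPKM in hippocampus and 11.03 to 12.26 in cortex. Of 8 choroid plexus genes, 5 passed as higher and 1 as lower, and the choroid plexus gene Ttr ranged from 13.42 to 152.4 RPKM among the hippocampus libraries and from 0.49 to 6.68 among the cortex libraries. Of 8 tested monocyte and neutrophil genes, with a median of 0.16, Mpo passed as higher (1.34 ± 0.49), at no more than 0.08 RPKM. The Mpo libraries overlapped between the tissues. Mpo and the choroid plexus gene Folr1 met the filter on low counts only through their hippocampus libraries, so passing is in part built in. Of 8 tested erythroid genes 0 passed in either direction, with a median of -0.09. The part of choroid plexus, meninges and proliferation in the tissue difference of the 30 genes was not tested.

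**Figure D3:**
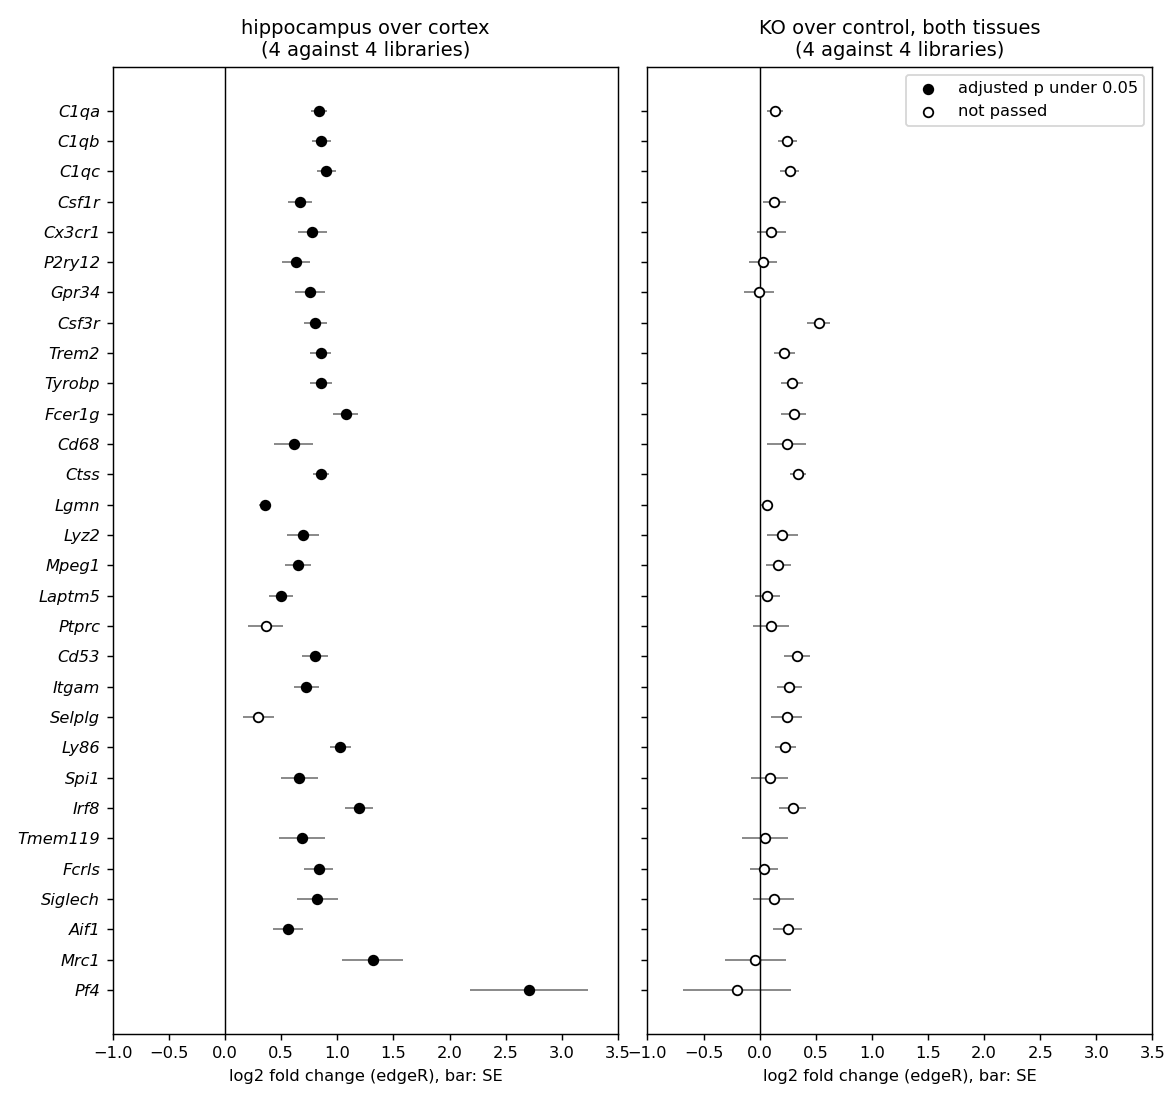
Log2 fold change with its SE for each of the 30 genes, hippocampus over cortex on the left and KO over control across both tissues on the right, from edgeR. Filled circles passed an adjusted p of 0.05 and open circles did not: 28 circles on the left are filled and 0 on the right, where 27 of the 30 lie above 0.

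The second comparison was KO against control, over both tissues with tissue as a covariate. The fit took the 8 libraries as independent, while the labels do not say whether hippocampus and cortex libraries share embryos. Where embryos are shared, each genotype holds fewer independent units than its 4 libraries. Agreement between the 2 tissues is then not separate evidence. No gene of the 30 passed. Among all 16111 genes, 10 did, or 0.0621%. The smallest adjusted p of the 30 was 0.334, for Csf3r, and the next was 0.468, for Ctss, in edgeR. At the level of single genes the estimates were small and mostly above 0: 27 of the 30 log2 fold changes were positive, against 48.2% of all genes, with a median of 0.19 against 0.00 over all genes. An unadjusted p under 0.05 with the higher level in KO was reached by 11 of the 30, against 2.16% of all genes, and with the lower level by 0. These counts describe the list and carry no test of their own. The genes of one cell type share their cells, so they are not independent of each other.

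Csf3r had the largest estimate. It stood at 0.71 and 0.79 RPKM in hippocampus KO against 0.51 and 0.56 in hippocampus controls, and at 0.43 and 0.40 RPKM in cortex KO against 0.27 and 0.28 in cortex controls. Both KO libraries lay above both controls in each tissue. The log2 fold change was 0.52 ± 0.10 (SE, unadjusted p = 0.000581, edgeR adjusted p = 0.334), from 83 to 292 counts per KO library and 64 to 205 per control library. Csf3r is also a receptor of neutrophils, and of 8 tested monocyte and neutrophil genes 6 had positive KO estimates, with a median of 0.28. The neutrophil gene S100a8 stood at 1.14 and 1.5 RPKM in hippocampus KO against 0.67 and 1.53 in hippocampus controls, and at 1.12 and 1.35 in cortex KO against 0.77 and 0.90 in cortex controls. S100a9 overlapped in each tissue, at 1.37 and 1.34 RPKM in hippocampus KO against 0.69 and 1.64 in hippocampus controls. In cortex S100a9 stood at 1.23 and 1.17 in KO against 1.16 and 1.46 in controls. Over the 14 listed monocyte and neutrophil genes the summed level was 3.72 and 3.83 RPKM in hippocampus KO against 2.47 and 4.15 in hippocampus controls, and 3.22 and 4.74 in cortex KO against 2.57 and 3.12 in cortex controls. The 4.74 includes 1.27 RPKM of Ly6c2 from 2 counts, and the 2.47 includes 0.33 from 1 count. The part of neutrophils in the Csf3r level was not tested.

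Ctss, given above, had both KO libraries above both controls in each tissue, at 9 and 8.91 RPKM in hippocampus KO against 7.04 and 6.97 in hippocampus controls, and at 4.64 and 4.68 in cortex KO against 3.85 and 3.41 in cortex controls. Its log2 fold change was 0.34 ± 0.07 (SE, unadjusted p = 0.000959, edgeR adjusted p = 0.468). DESeq2, run as an alternative, called Ctss with an adjusted p of 0.0238 and called no other gene of the 30. C1qc and C1qb had 0.27 ± 0.08 and 0.25 ± 0.08, with unadjusted p of 0.0105 and 0.0169, and C1qa had 0.14 ± 0.07 (SE, edgeR adjusted p = 1.000 for each). Tyrobp, Fcer1g and Trem2 had 0.29 ± 0.10, 0.30 ± 0.11 and 0.22 ± 0.10.

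Several genes used to identify microglia had smaller estimates. Csf1r had a log2 fold change of 0.13 ± 0.11, Cx3cr1 of 0.10 ± 0.13, P2ry12 of 0.03 ± 0.12 and Tmem119 of 0.05 ± 0.20 (SE). Fcrls had 0.04 ± 0.13 and Gpr34 -0.01 ± 0.13. Not all such markers were low: Aif1 (Iba1) had 0.25 ± 0.13 and Itgam (CD11b) 0.26 ± 0.11, similar to C1qb and C1qc. For P2ry12 the KO and control libraries overlapped in each tissue, at 3.68 and 2.98 RPKM in hippocampus KO against 3.20 and 2.64 in hippocampus controls, and at 1.97 and 1.66 in cortex KO against 2.09 and 1.84 in cortex controls. Lyz2 had 0.20 ± 0.14, and the border macrophage genes Mrc1 and Pf4 had -0.04 ± 0.27 and -0.21 ± 0.48. A test of whether C1q or Ctss differed from Csf1r in its KO effect was not made.

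By the order of RPKM, both KO libraries lay above both controls for 16 of the 30 genes in hippocampus and for 13 in cortex, against 16.1% and 10.4% of all genes. This held in both tissues for 11 genes, against 2.98% of all genes: C1qb, C1qc, Csf3r, Trem2, Fcer1g, Ctss, Lgmn, Cd53, Itgam, Selplg and Ly86. With TMM scaling the counts were 14, 11 and 9, against 13.3%, 11% and 2.66%. Both KO libraries lay below both controls for 0 of the 30 genes in either tissue, against 12.4% of all genes in hippocampus and 11.7% in cortex. The tissue summaries for the whole list were 172 and 155 RPKM in hippocampus KO against 146 and 138 in hippocampus controls, and 93.1 and 93.6 RPKM in cortex KO against 85.9 and 81.6 in cortex controls.

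Within each tissue the test had 2 libraries against 2, in a fit of all 4 groups. In hippocampus 0 of the 30 genes passed, against 0.0248% of all genes, 25 of 30 estimates were positive, against 48.6% of all genes, and the median was 0.22. An unadjusted p under 0.05 with the higher level in KO was reached by 2 of the 30, against 1.56% of all genes. In cortex 0 passed, against 0.0186% of all genes, 25 were positive, against 49.7%, and the median was 0.20. Here 3 of the 30 reached an unadjusted p under 0.05, against 0.608% of all genes. The smallest p in each tissue belonged to Csf3r and then Ctss. Csf3r had 0.46 ± 0.15 in hippocampus and 0.59 ± 0.16 in cortex (SE, unadjusted p = 0.0139 and 0.00547, edgeR adjusted p = 0.992 and 1.000). Ctss had 0.32 ± 0.11 in hippocampus and 0.36 ± 0.11 in cortex (SE, unadjusted p = 0.0179 and 0.0122). The third was C1qc in hippocampus, 0.27 ± 0.13, and Trem2 in cortex, 0.36 ± 0.14 (SE, unadjusted p = 0.0665 and 0.0291).

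The size of the shift depended on single libraries. In TMM-scaled CPM, hippocampus KO replicate 1 was the highest of all 8 libraries for 18 of the 30 genes, and hippocampus control replicate 2 was the lowest of its tissue for 18. Without hippocampus KO replicate 1, the hippocampal median was 0.08 with 19 of 30 positive, and without hippocampus control replicate 2 it was 0.09 with 19 positive. In cortex, control replicate 2 was the lowest library for 20 genes. The cortical median was 0.10 without that library and 0.33 without control replicate 1. Libraries with the same replicate number were also compared in TMM-scaled CPM. KO exceeded control for 24 genes in hippocampus replicate 1 and 24 in replicate 2, against 50.8% and 47.9% of all genes. In cortex KO exceeded control for 25 genes in replicate 1 and 26 in replicate 2, against 48.1% and 49.6%. The median log2 differences were 0.20, 0.15, 0.16 and 0.25 in that order. In the replicate 2 pairs, genotype and Y-linked level cannot be told apart.

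**Figure D4:**
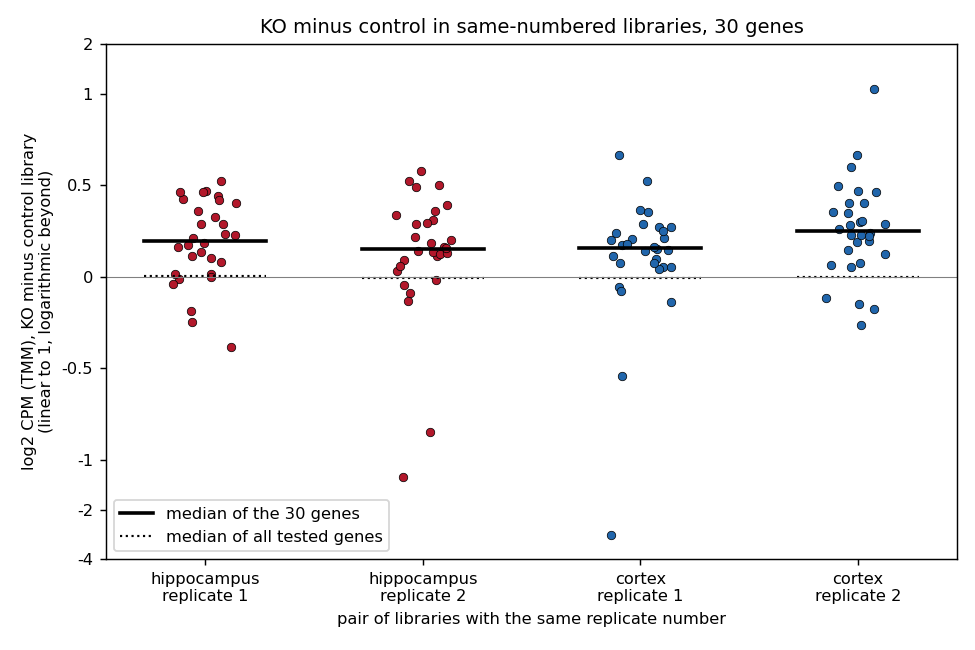
Log2 difference in TMM-scaled CPM between the KO and the control library of the same replicate number, for hippocampus on the left and cortex on the right, with 1 point per gene, a solid line at the median of the 30 genes and a dotted line at the median of all tested genes. The axis is linear to 1 and logarithmic beyond. The 4 solid lines lie at 0.15 to 0.25, the dotted lines at about 0, and 4 to 6 points of each pair lie below 0.

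Markers of blood and of interferon response also had mostly positive KO estimates, without any gene passing the test. Erythroid genes, which report blood in the tissue, summed to 494 and 297 RPKM in hippocampus KO against 199 and 281 in hippocampus controls, and to 357 and 302 in cortex KO against 215 and 284 in cortex controls. Their median KO estimate was 0.54 with 7 of 8 positive, and 0 passed. For interferon response genes the median KO estimate was 0.34, 10 of 10 were positive, and 0 passed. They summed to 13.1 and 21.4 RPKM in hippocampus KO against 12.6 and 14.9 in hippocampus controls, and to 10.6 and 13.6 in cortex KO against 9.89 and 9.82 in cortex controls. For the further microglia genes the median was 0.12, 29 of 36 were positive and 0 passed, and for the developmental or disease-associated ones the median was 0.05. Endothelial, meningeal and cell cycle genes had medians of -0.04, -0.03 and -0.01. The part of blood content and of interferon-related signal in the levels of the 30 genes was not tested.

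The last comparison set the KO effect in hippocampus against that in cortex. In edgeR 0 of the 30 genes and 0 of all 16111 passed, or 0%, and DESeq2 called 0 as well, while 158 genes, or 0.981%, had an unadjusted p under 0.05. None of those 158 was among the 30. The estimates, hippocampus minus cortex, were positive for 16 of the 30 genes against 48.4% of all genes, with a median of 0.00. The smallest p values belonged to Siglech, Spi1 and Trem2, with differences of 0.59 ± 0.33, -0.51 ± 0.31 and -0.26 ± 0.19 (SE, unadjusted p = 0.109, 0.137 and 0.196). Siglech stood at 1.07 and 0.80 RPKM in hippocampus KO against 0.74 and 0.66 in hippocampus controls, and at 0.34 and 0.48 in cortex KO against 0.50 and 0.41 in cortex controls. For Ctss the difference was -0.04 ± 0.16 and for C1qb 0.00 ± 0.18 (SE), beside the KO effects of Ctss given above for each tissue.

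The replicate libraries did not differ in the same direction for all 30 genes. In TMM-scaled CPM, replicate 1 was higher than replicate 2 for 19 to 23 of the 30 genes in each of the 4 groups. Over all genes tested the median log2 difference was -0.0014 to 0.014. On that scale C1qc, Csf1r, Cx3cr1, P2ry12, Lgmn, Mpeg1, Itgam, Spi1, Fcrls and Mrc1 were higher in replicate 1 in 4 of 4 groups. Fcer1g, Cd68 and Aif1 were higher in replicate 2 in 4 of 4 groups on the same scale, Fcer1g by only 0.013 on the log2 scale in hippocampus KO. The share of all genes with such an order in 4 of 4 groups was not computed, so these gene counts have no background. Cd68, for example, stood at 5.26 and 5.80 RPKM in hippocampus KO, 3.63 and 5.32 in hippocampus controls, 2.50 and 4.10 in cortex KO, and 2.42 and 3.35 in cortex controls. The ratio of Tyrobp to Cx3cr1 RPKM was 1.83 and 1.78 in hippocampus KO, 1.32 and 1.95 in hippocampus controls, 1.54 and 1.94 in cortex KO, and 1.33 and 1.77 in cortex controls. The replicate number goes with sequencing depth and number of runs, and its part in these values cannot be told apart from that of the embryos.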

How the data were processed

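The data are messenger RNA tables of mouse embryonic hippocampus and cortex, with 12 samples in the labels that map to 8 tables because both runs of replicate 1 share a table. Each table gives, as the authors deposited it, raw read counts per gene and an RPKM value per gene. RPKM is marked as not estimable for 1114 genes per table, none of them among the 30. Genome build mm9 and the aligner Bowtie, without a version, are named in the submitters' processing notes. How reads were counted, with which strand setting and annotation, is not stated in the sources used here, so overlapping genes and close copies are uncertain. Per the labels' protocols, the RNA came from Tri Reagent extraction and the libraries from the Illumina TruSeq kit.

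Gene IDs were given GENCODE symbols (20759 of 22667 IDs). Counts were tested with edgeR 4.0.16 in R 4.3.3 (TMM scaling, filterByExpr with a minimum count of 10, quasi-likelihood F test, Benjamini-Hochberg adjustment over 16111 genes, threshold 0.05). KO and tissue effects came from an additive fit of all 8 libraries, effects within a tissue and their difference from a fit of the 4 groups. Levels are the authors' RPKM; CPM was computed from the counts. The scripts were tested on simulated data. Replicates differed by more than counting noise, with a chi-square of 31.8 to 64.6 per degree of freedom. A count of 3, used as the detection floor, equals 0.0214 to 0.0515 CPM, and covers counting error only.

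The 30 genes and the other lists were chosen with earlier results of these data known. Full statistics are given for C1qa, C1qb, C1qc, Csf1r, Cx3cr1, P2ry12, Tmem119, Trem2, Tyrobp, Mrc1, Pf4 and Lyz2 and for the 3 genes with the smallest p and all that passed in a comparison. Of the other lists, genes are named that passed, were abundant, or were picked as examples after their values were seen. Alternatives were DESeq2 1.42.0, RLE scaling, other filters, limma 3.58.1 on log2(RPKM + 1) or log2(RPKM + 0.1), limma on the mean of both tissues, the 4 libraries of 1 tissue alone, the replicate number as a block, and leaving out each library. Replicate numbers were not taken as pairs. Some genes of the other lists are not reported here.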

Additional observations from a re-analysis of the deposited data

How the results depend on the processing

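Leaving out each library in turn, all 30 genes had positive estimates for hippocampus against cortex, with a median log2 fold change of 0.72 to 0.83. In other settings 22 to 29 of the 30 passed. Those settings called 7152 to 10010 of all genes tested in either direction, beside 8712 in the main fit. The 22 are all members that remained testable under a filter of at least 1 RPKM in 2 libraries. Gpr34, Irf8, Itgam and Mrc1 met that filter only because of their hippocampus libraries, so their passing is in part built into it. The median was 0.55 with limma on log2(RPKM + 1), where the added 1 shrinks low genes.

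For KO against control over both tissues, DESeq2 called 37 genes of all those tested, of which 1, Ctss, is among the 30, a fit with the replicate block called 22 and limma on the mean of both tissues called 4. With the filter of at least 1 RPKM the median was 0.21, over the 22 members that remained testable. With limma on log2(RPKM + 1) the median of the 30 genes was 0.13. Leaving out libraries gave medians of 0.12 to 0.22, with 23 to 30 genes positive. The sign turned in P2ry12 (-0.0622 to 0.10), Tmem119 (-0.0945 to 0.25), Mrc1 (-0.31 to 0.22) and Pf4 (-0.99 to 0.12).

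In cortex DESeq2 called 11 genes, the median was 0.10 with limma on log2(RPKM + 1), and leaving out libraries gave 0.10 to 0.33. In hippocampus DESeq2 called 18 genes; the filter of at least 1 RPKM, limma on log2(RPKM + 1) and the 4 libraries of the tissue alone called 2 each; leaving out libraries gave 2 to 6 genes and medians of 0.0791 to 0.28. The median under limma on log2(RPKM + 1) was 0.16. The difference between tissues had 9 to 21 genes positive and medians of -0.11 to 0.11 without 1 library. The cause of these changes was not tested.

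Libraries with the same replicate number deviated together with correlations of 0.0986 to 0.36 across genes, under 0.1 for 1 of the 6 group pairs. Between hippocampus and cortex of the same genotype the correlation was 0.36 in KO and 0.324 in controls. The other group pairs had 0.0986 to 0.243. Whether these tissues share embryos was not tested. The block result is given as a setting only. With the block 29 of the 30 genes passed as higher in hippocampus, beside the range for all genes given above, and 0 passed for KO. Where leaving out a library left 1 in its group, that library was assumed to vary like those of the other groups. Depth limits Pf4 most, with 1 to 71 counts per library.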
